A study of Homo sapiens with 2 samples.

Results

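The cytosolic ribosomal protein genes were followed in C4-2B cells, a human castration-resistant prostate cancer line, after vehicle or (R)-9b, an inhibitor of the kinase ACK1. Members were the protein-coding genes of the deposited count table whose symbol was RPSA or had the form of a large (RPL, RPLP) or small (RPS) subunit gene. This rule found 84 of 60671 genes, of which 77 encode the standard proteins of the human ribosome (core members, 31 of the 40S and 46 of the 60S subunit) and 7 are paralogs with an L in their symbol that resemble a core member. No measured value was used to choose them.

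RNA sequencing of poly-A selected RNA gave 1 library per condition. Both libraries came from C4-2B cells grown in medium with fetal bovine serum, and the treated cells were exposed overnight to 1 µM (R)-9b. The cells carry no engineered change according to the labels, which name breast cancer as the cell type, whereas the study describes the line as prostate cancer. The libraries held 65207444 counts in vehicle and 57653965 in (R)-9b. With no replicate culture, the spread between cultures could not be measured, no test was made, and each 95% interval below is an exact (Clopper-Pearson) interval of the ratio of 2 counts that covers counting error alone. Ratios are (R)-9b over vehicle after TMM scaling, on the log2 scale, and a gene was called lower when its ratio was under 0.8 and higher when it was over the inverse of that, which is 0.32 on the log2 scale. This limit is the threshold named below.

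A ribosome holds 1 copy of most of these proteins, built around ribosomal RNA into a small subunit that reads the mRNA and a large subunit that joins amino acids. Their mRNAs are among the most abundant in dividing cells. Most of them begin with a 5′ terminal oligopyrimidine (TOP) motif, a C followed by a run of pyrimidines, through which mTORC1 and the RNA-binding protein LARP1 control their translation and stability together.

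The identity of the cells was checked against markers. All 9 prostate luminal markers were detected, KLK3 (prostate-specific antigen) having 146597 counts in vehicle and 297728 in (R)-9b and HOXB13, a prostate lineage factor, 15362 and 18619. Of 5 breast markers, SCGB2A2 and ANKRD30A had 0 counts in both libraries and ESR1 had 2 in each, and TRPS1 held 906 of 918 and 516 of 520 of their summed counts. PTPRC, which marks all leukocytes, also had 0 counts in both. Summed counts were 19 and 33 for 5 immune markers and 1161 and 2078 for 6 stromal markers, nearly all of them COL1A1. The libraries also differed in mitochondrially encoded RNA, which made up 1.49% of counts in vehicle and 9.54% in (R)-9b. Its part in the ratios below was not tested. TMM factors computed without those genes gave the same median for the core members. As TMM trims genes with extreme ratios, leaving them out could hardly move it, so this does not measure that part.

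The starts of the ribosomal protein genes show the feature that sets their mRNAs apart. RefSeq promoter sequences (GRCh38.p14) were at hand for 67 of the 84 members. A C at the annotated start followed by at least 4 pyrimidines was found in 46 of 62 core members (74.2%), in 1 of 5 paralogs and in 6.63% of the 11653 other protein-coding genes tested that had a sequence. Over all 35116 entries the share was 4.07%. Within 10 bases of the annotated start it was 53 of 62 core members (85.5%), against 4083 of the 11653 other genes. Away from the annotated start itself, a run was counted only where a purine preceded its C. The following windows of 30 bases, 10 before and 20 from the annotated start, are a selection. They come from genes with low or high log2 ratios and from parents and paralogs. Among those not shown, RPS27A (0.10), RPL27 (0.081), RPS26 (0.055) and RPS15 (0.048) had higher log2 ratios than RPL39. Of these, RPL27, RPS26 and RPS15 have no counted run within 10 bases of the annotated start. RPS26 and RPS15 do hold a run there, but its C follows a T. RPL7, the parent of RPL7L1, had no promoter sequence. Capitals mark the pyrimidine run.
RPL41, chr12:56116623-56116652, plus strand: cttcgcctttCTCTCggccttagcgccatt
RPL10, chrX:154398367-154398396, plus strand: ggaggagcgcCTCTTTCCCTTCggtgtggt
RPLP0, chr12:120201092-120201121, minus strand: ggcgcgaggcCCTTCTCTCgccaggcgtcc
RPL13A, chr19:49487598-49487627, plus strand: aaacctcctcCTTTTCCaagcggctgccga
RPS3, chr11:75399508-75399537, plus strand: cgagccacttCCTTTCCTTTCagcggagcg
RPL26, chr17:8383174-8383203, minus strand: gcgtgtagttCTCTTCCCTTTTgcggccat
RPL39, chrX:119791611-119791640, minus strand: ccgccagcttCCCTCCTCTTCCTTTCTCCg
RPS29, chr14:49598691-49598720, minus strand: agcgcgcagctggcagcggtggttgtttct
RPL22, chr1:6199576-6199605, minus strand: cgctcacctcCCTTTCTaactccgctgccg
RPL22L1, chr3:170870176-170870205, minus strand: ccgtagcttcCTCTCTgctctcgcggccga
RPL7L1, chr6:42879606-42879635, plus strand: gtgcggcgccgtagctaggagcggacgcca
RPL10L, chr14:46651762-46651791, minus strand: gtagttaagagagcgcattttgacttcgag

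The log2 ratios were compared between core members with and without such a start. Among core members with 1000 or more counts in vehicle, the median log2 ratio was -0.13 in the 44 with a pyrimidine run at the annotated start and -0.12 in the 15 without. With a run allowed within 10 bases of the start, it was -0.13 in 51 genes with a run and 0.0081 in 8 without. The 8 include RPL9, RPL10A, RPS15 and RPS26, in which a run within 10 bases follows a T and was not counted. RPL41, the lowest core member, and RPL26, above 0, both carry a run. RPL10 has several annotated starts. The one shown has a run at the annotated base, and another has a run within 10 bases of it.

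Short motifs within the 300-base promoters were searched on both strands. CTTCCGG, a form bound by ETS family factors, was present in 22 of the 62 core members (35.5%), against 20.3% of the other protein-coding genes tested and 10.3% of all entries. GCCATCTT, a form bound by YY1, was present in 6 of 62 (9.68%), against 5.84% and 2.89%. The end of GCCATCTT and the start of CTTCCGG share the letters CTT, so a single stretch can count for both motifs, and a match is a description of the sequence and not of binding.

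As a group, the core members were lower in (R)-9b, within a narrow range. Their summed counts were 5606805 in vehicle and 4224287 in (R)-9b. They made up 8.60% and 7.33% of each library, and 8.73% and 8.10% of the counts outside mitochondrially encoded genes. The summed scaled counts gave a log2 ratio of -0.17 (95% interval -0.173 to -0.169), a ratio of 0.888. The median log2 ratio over the 77 genes was -0.12 with an interquartile range of 0.16, beside a median of -0.0049 and an interquartile range of 0.83 over all 23446 genes tested. Since these values are shares of a library, fewer ribosomal protein mRNAs per cell, fewer cells that express them and more of other RNA cannot be told apart.

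Of the 77 core members, 64 (83.1%) had a log2 ratio below 0, whereas 50.3% of all genes tested did. Past the threshold, 4 core members were higher and 4 were lower, 5.19% each. The share of all genes tested that was called higher was 29.8% and that called lower was 28.9%, so the share of core members past the threshold was below the background in both directions, without a test of that difference. Under scaling by total counts the split was 3 higher and 8 lower, and under upper-quartile scaling 4 higher and 1 lower.

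Other abundant genes spread more widely. Among 2044 nuclear protein-coding genes outside the set with a mean of at least 100 CPM (counts scaled to library size), the median log2 ratio was -0.019 and the interquartile range 0.51. Of these, 19.4% were called higher and 21.7% lower. The 884 of them with a coding sequence of at most 1300 bases, which covers the length of every core member, had an interquartile range of 0.43.

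**Figure D1:**
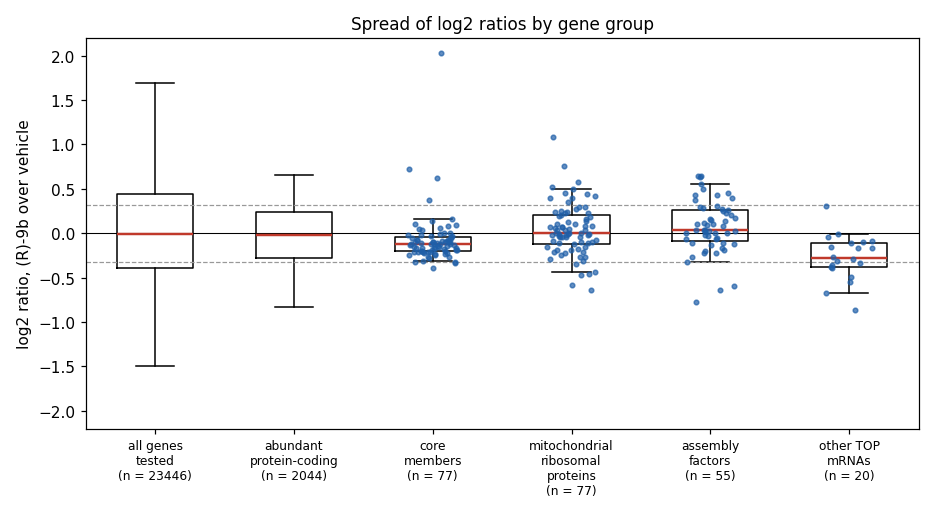
Log2 ratio of (R)-9b over vehicle by gene group. Boxes span the quartiles with the median in red, whiskers reach from the 5th to the 95th percentile, points are single genes in groups under 100, and dashed lines mark the threshold. The core members form the narrowest box, with a median of -0.12, and the other TOP mRNAs have the lowest median, -0.28.

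The subunits had alike values. The 31 genes of the 40S subunit had a median log2 ratio of -0.11 and an interquartile range of 0.20, and the 46 genes of the 60S subunit had -0.13 and 0.13. Weighted by abundance, both subunits gave -0.17. The counting interval lay wholly below 0 for 60 core members, wholly above 0 for 12 and across 0 for 5.

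**Figure D2:**
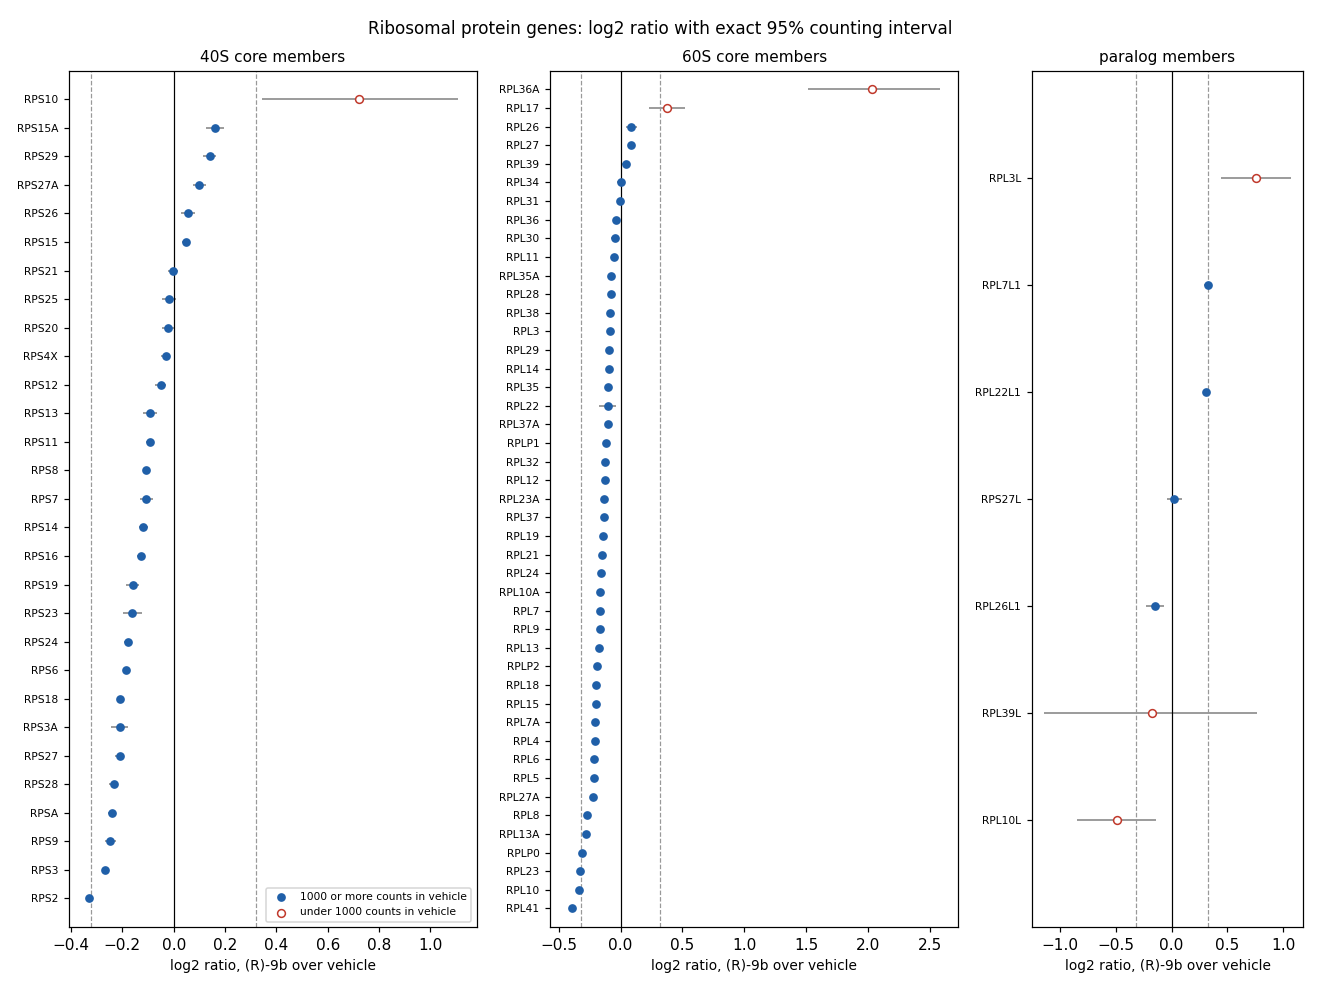
Log2 ratio of single members, with exact 95% counting intervals, for core members of each subunit and for the paralogs. The x axes differ between panels, dashed lines mark the threshold, and open red points are genes under 1000 counts in vehicle, which are the only core members shown to the right of the upper line.

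The lowest ratio among core members was that of RPL41 (ENSG00000229117, chr12:56116586-56117943, GRCh38), which encodes one of the smallest human proteins from a coding sequence of 75 bases. RPL41 had 31356 counts in vehicle and 20248 in (R)-9b, a log2 ratio of -0.39 (95% interval -0.42 to -0.37). RPL10 (ENSG00000147403, chrX:154389955-154409168), added late to the large subunit near the catalytic centre, had 57298 and 38430 counts, a log2 ratio of -0.34 (-0.36 to -0.32). The interval of RPL41 lay wholly past the threshold and that of RPL10 reached across it.

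RPS2 (ENSG00000140988, chr16:1962052-1964860), at the entry of the mRNA channel, was the most abundant member with 419935 counts in vehicle and 283472 in (R)-9b. Its log2 ratio was -0.33, with an interval of -0.336 to -0.322 that lay wholly past the threshold. With counts halved, in case 1 count stands for 1 mate of a read pair, the interval would be -0.339 to -0.319, across the threshold. The authors' estimated transcript counts gave RPS2 a log2 ratio of -0.31, inside the threshold. RPL23 (ENSG00000125691, chr17:38847865-38853843), a protein of the face of the large subunit that joins the small one, had 62818 and 42505 counts and a log2 ratio of -0.33 (-0.34 to -0.31). Just inside the threshold stood RPLP0 with 231606 and 158646 counts and -0.31. Thus 3 of the 4 genes called lower lay within 0.02 of the limit, and no core member was lower by 1.5-fold.

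Next came RPL13A, with 252462 and 176569 counts and a log2 ratio of -0.28, and RPL8, with 187252 and 131721 counts and -0.27. In the small subunit RPS2 was followed by RPS3 (102848 and 72525 counts, -0.27) and RPS9 (48100 and 34384, -0.25). RPSA, which doubles as a laminin-binding protein, had 112566 and 80776 counts and -0.24. These genes were lower in (R)-9b by amounts that the counting intervals keep apart from 0 but that stayed inside the threshold in the gene counts. In estimated transcript counts RPS9 passed it, at -0.34.

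At the upper end, among the 73 core members with 1000 or more counts, none was called higher. RPS15A had 12970 counts in vehicle and 12305 in (R)-9b, a log2 ratio of 0.16 (0.13 to 0.20). RPS29, a zinc-binding protein of the small subunit, had 25618 and 23955 counts and 0.14 (0.12 to 0.17). RPS27A, made as a fusion with ubiquitin, had 24329 and 22119 counts and 0.10 (0.074 to 0.13).

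In the large subunit the highest of these was RPL26 with 7795 and 7029 counts and a log2 ratio of 0.089 (0.042 to 0.14), then RPL27 with 53452 and 47939 counts and 0.081. RPL39 had 22547 and 19669 counts and 0.041. RPL34 (21137 and 17928 counts) and RPL31 (33405 and 28182) lay at 0.00023 and -0.0075. The raw counts of all these genes were lower in (R)-9b, whose library was also the smaller one.

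By role, the stalk that recruits translation factors showed 4 of 4 members below 0. RPLP0, the base on which the acidic P proteins sit, was the lowest of them. RPLP1 had 139488 and 108798 counts and a log2 ratio of -0.12, RPLP2 had 81635 and 60561 and -0.19, and RPL12 had 93505 and 72730 and -0.12. The median of the 4 was -0.16, with none called.

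RPL5 and RPL11 form a particle with 5S ribosomal RNA that also binds MDM2 when assembly fails. RPL5 had 55341 and 40449 counts and a log2 ratio of -0.21 (-0.23 to -0.20), and RPL11 had 45596 and 37361 counts and -0.050 (-0.069 to -0.030). Their counting intervals did not overlap, although these proteins enter the ribosome together.

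Near the catalytic centre, RPL3 had 214619 counts in vehicle and 171233 in (R)-9b and a log2 ratio of -0.088, against -0.27 for RPL8 and -0.34 for RPL10. The 9 proteins around the exit tunnel ranged from -0.20 to 0.38. The upper end was RPL17, which had 774 counts in vehicle and whose estimated transcript counts gave -0.044. RPL4, which lines the tunnel, had 179101 and 131780 counts and a log2 ratio of -0.20. RPL19 had -0.14, RPL23A -0.13, RPL22 -0.10 and RPL35 -0.10, and RPL31, RPL39 and RPL26 lay between -0.0075 and 0.089, with RPL17 at 0.38. The median of these 9 was -0.10.

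Along the mRNA channel of the small subunit, 6 of 8 members were below 0 and the median was -0.20, with RPS2 called lower. RPS28 had 64690 and 46637 counts and a log2 ratio of -0.23, RPS23 had 13490 and 10229 and -0.16, and RPS14 had 58633 and 45797 and -0.12. RPS15 and RPS26 were the exceptions, with 79100 and 69356 counts and 0.048 and with 23932 and 21085 counts and 0.055. The 13 members listed here as mutated in Diamond-Blackfan anaemia, an inherited failure of red cell production, had a median of -0.073. Of these, 2 were called higher (15.4%) and none lower, beside 29.8% and 28.9% of all genes tested. Both had under 1000 counts in vehicle, and estimated transcript counts for RPS10, 1 of the 2, gave -0.16. RPS19, the gene most often affected, had 28733 and 21805 counts and a log2 ratio of -0.16.

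All 4 core members called higher had under 1000 counts in vehicle, far below the other 73, and 3 of them are described here. RPL36A (ENSG00000241343, chrX:101390824-101396154) had 40 counts in vehicle and 139 in (R)-9b, a log2 ratio of 2.03 (1.52 to 2.58). RPS10 (ENSG00000124614, chr6:34417454-34426125) had 100 and 140 counts and 0.72 (0.34 to 1.11). RPL17 (ENSG00000265681, chr18:49488453-49492523) had 774 and 852 counts and 0.38 (0.23 to 0.52).

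The deposited transcript table, which holds estimated counts for the same libraries, placed these 3 genes elsewhere. Its estimate for RPL36A was 14577 counts in vehicle and 9443 in (R)-9b, a log2 ratio of -0.38. For RPS10 it was 22488 and 16974 (-0.16) and for RPL17 30243 and 24694 (-0.044). The gene table thus held 0.0027 to 0.026 counts per estimated count in vehicle for these genes, against a median of 2.75 over the core members. RPL17, RPS10 and RPL36A each share sequence with an annotated readthrough locus (RPL17-C18orf32, RPS10-NUDT3 and RPL36A-HNRNPH2), and those 3 loci together had 2 counts in vehicle and 0 in (R)-9b. The gene table holds reads that the authors assigned without ambiguity, and the part of that choice in these low counts was not tested. These 3 calls turned direction in the transcript table. Without the 4 genes under 1000 counts the core members had a median of -0.13 and an interquartile range of 0.14, with none called higher and 4 called lower.

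**Figure D3:**
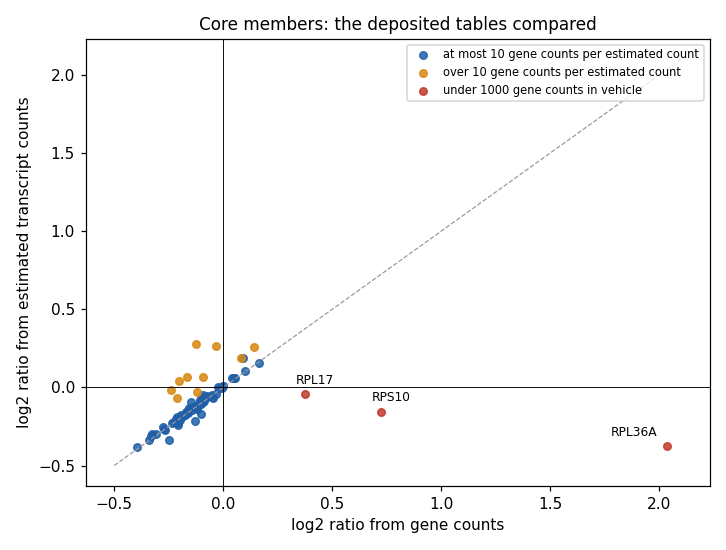
Log2 ratio of core members from gene counts (x axis) and from estimated transcript counts summed per gene (y axis). The dashed line marks equal values. Red points are RPL36A, RPS10 and RPL17, under 1000 gene counts in vehicle, which lie far to the right of it, and orange points are genes with over 10 gene counts per estimated count.

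For 62 other core members the tables differed by a median of 0.011 on the log2 scale and by at most 0.0998, and the sign was the same in 60. The 11 remaining genes, among them RPSA and RPL12, had over 10 gene counts per estimated count, so their estimates were set aside. Their principal mRNA was not listed in the transcript table. The same was true of many members whose estimates were used, among them RPL4, RPL13, RPL15, RPL26, RPS10, RPS23, RPS27 and RPL22L1. RPL12, one of the 11, had a log2 ratio of 0.28 in the transcript table against -0.12 from gene counts. Among the 62 genes, 8 had under 2 gene counts per estimated count, namely RPL22, RPL26, RPS15A, RPL41, RPS23, RPL23A, RPS3A and RPL30. Which table is nearer to their true level was not tested. Their ratios differed between the tables by under 0.04 except that of RPL22, at -0.10 and -0.17, that of RPL26, which was 0.089 in the gene table and 0.19 in the transcript table, and that of RPL23A, -0.13 and -0.22.

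Per kilobase of coding sequence, scaled levels in vehicle ran from 149 CPM per kilobase for RPL22 to 7175 for RPS2 among the 73 genes with 1000 or more counts. RPS2 was followed by RPL41 (6279), RPL13A (6226), RPLP1 (6126) and RPS18 (5078). In (R)-9b these levels were 5711, 4781, 5135, 5634 and 4394, so RPL41 stood behind RPL13A and RPLP1 in that library. Coding length leaves out the untranslated regions, which raises the value of a gene as short as RPL41. RPL36A, RPS10 and RPL17 had 1.89, 3.03 and 21.1 in the gene table.

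The most abundant members tended to have the lowest ratios. When the 73 genes were ordered by CPM in vehicle, the 24 least abundant (57.1 to 627 CPM) had a median log2 ratio of -0.049, the next 24 had -0.13 and the 25 most abundant (1187 to 6307 CPM) had -0.20. Spearman's rho over the 73 genes was -0.50 and Pearson's r -0.50. The vehicle count enters both measures, genes are not independent replicates, and the same rho over the 2044 abundant genes outside the set was -0.35.

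Coding length went the same way. The 24 shortest coding sequences (75 to 399 bases) had a median log2 ratio of -0.062, the next 24 had -0.13 and the 25 longest (582 to 1281 bases) had -0.20, and all 25 of the longest were below 0. The rho with coding length was -0.48 over the 73 core members and 0.012 over the 2044 abundant genes. With GC content of the coding sequence it was -0.31 over the core members and 0.25 over the abundant genes, which is the opposite sign.

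The 7 paralogs varied more than the core members, with log2 ratios between -0.49 and 0.76. RPL22L1, which can take the place of RPL22 in the ribosome, had 13457 counts in vehicle and 14161 in (R)-9b, a log2 ratio of 0.31 (0.28 to 0.35). Its parent RPL22 had 3802 and 3004 counts and -0.10 (-0.17 to -0.033). Per kilobase of coding sequence RPL22L1 stood at 552 CPM in vehicle and 685 in (R)-9b, and RPL22 at 149 and 139, although RPL22 is among the genes with few gene counts per estimated count. In the transcript table the ratios were 0.31 and -0.17, so the paralog lay above 0 and its parent below it in both tables.

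RPL7L1 had 14724 and 15599 counts, a log2 ratio of 0.32 (0.29 to 0.35) that lay just under the threshold, while RPL7 had 58823 and 44518 counts and -0.16. RPL7L1 and RPL22L1 were the only members with 1000 or more counts whose raw counts were higher in (R)-9b, the smaller library. The transcript estimate for RPL7L1 gave 0.32.

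RPL3L, a heart and skeletal muscle form of RPL3, had 146 and 209 counts and a log2 ratio of 0.76 (0.44 to 1.07), against -0.088 for RPL3. RPL10L, a testis form of RPL10, had 181 and 109 counts and -0.49 (-0.85 to -0.14), against -0.34 for RPL10. RPL39L had 24 and 18 counts and an interval of -1.14 to 0.77 that allows either direction. These 3 tissue-restricted forms stood at 1.80 to 4.23 CPM per kilobase in vehicle. Should 1 count stand for 1 mate of a read pair, halved counts would widen the interval of RPL10L to -1.01 to 0.0067.

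RPL26L1 had 2897 and 2213 counts and a log2 ratio of -0.15 (-0.23 to -0.070), whereas RPL26 was at 0.089. RPS27L, a target of p53, had 3914 and 3370 counts and 0.022, with RPS27 at 57306 and 42019 counts and -0.21. In both pairs the paralog and its parent differed by more than their counting intervals, in opposite order.

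**Figure D4:**
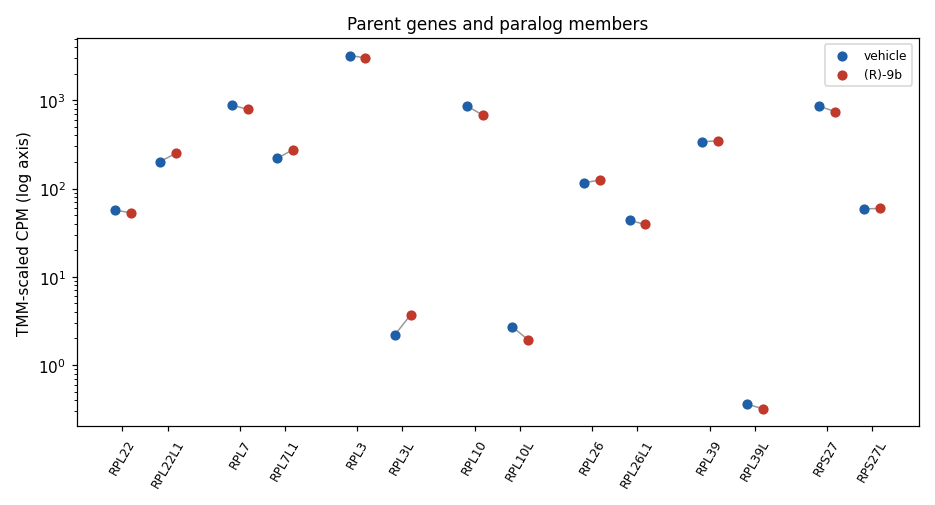
TMM-scaled CPM (log axis) of each parent gene and its paralog in vehicle (blue) and (R)-9b (red), 1 library each. RPL22L1 and RPL7L1 stand higher in (R)-9b and their parents lower, and RPL3L, RPL10L and RPL39L lie below 4 CPM.

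Transcript estimates showed how isoforms of the members shifted. Of 258 member transcripts with at least 1000 estimated counts over both libraries, 8 changed their share of their gene by 5 percentage points or more. Protein-coding transcripts held 86.8% of all estimated member counts in vehicle and 86.6% in (R)-9b, transcripts with a retained intron 8.53% and 8.81% and those marked for nonsense-mediated decay 1.96% and 1.74%. The share of transcript classes thus moved by less than 0.3 percentage points while single isoforms moved more.

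The clearest shift in an abundant gene concerned RPS24, whose last coding exons are spliced in alternative forms. A 22-base exon at chr10:78040204-78040225 (plus strand, GRCh38, GENCODE 29), shown because it tells these forms apart, reads as follows, with the exon in capitals between 4 bases of its neighbours.
RPS24 22-base exon in RPS24-202: aaagTGAGCTGGAGATTGGATCACAGccga

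RPS24-214, which skips this exon, had 15291 estimated counts in vehicle and 9356 in (R)-9b, which were 49.4% and 40.6% of the gene. RPS24-202, which holds it, had 3335 and 4432 estimated counts, 10.8% and 19.2%. RPS24-201, with the 22-base exon and a further one of 3 bases, had 486 and 1025. RPS24-205, which holds the same exons, went the other way with 421 and 212, or 1.36% and 0.920%. Among the 8 protein-coding RPS24 transcripts, those with the 22-base exon made up 21.4% in vehicle and 37.4% in (R)-9b. On the log2 scale the forms with the exon gave 0.67 and the coding forms without it -0.46, while the gene as a whole gave -0.18 in both tables. These are model-based estimates from 1 library each, and no junction reads were at hand.

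**Figure D5:**
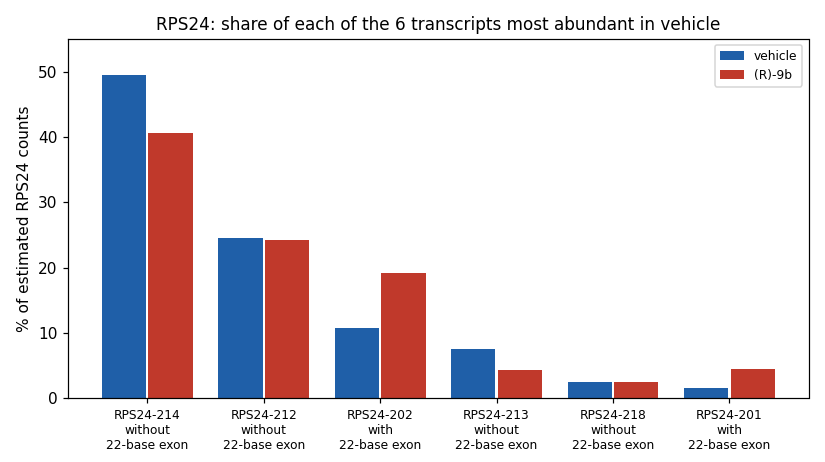
Share of the estimated RPS24 counts taken by each of the 6 transcripts most abundant in vehicle, in vehicle (blue) and (R)-9b (red). The forms with the 22-base exon, RPS24-202 and RPS24-201, have larger shares in (R)-9b, unlike the less abundant RPS24-205, which is not drawn, and RPS24-214 and RPS24-213, which lack it, have smaller ones.

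Ribosomal protein genes have many processed pseudogenes, copies that can take reads from the parent. The table holds 1236 pseudogenes named after 78 of the members. They had 331966 counts in vehicle and 247289 in (R)-9b, equal to 5.88% and 5.80% of the member counts, and their summed log2 ratio was -0.19. RPS2P5, the one with the most counts, had 44126 and 30217 and a log2 ratio of -0.31, beside -0.33 for RPS2. Where a copy and its parent are near identical, how reads were split between them is uncertain. Adding pseudogene counts to each parent gave a core median of -0.14 and turned RPL36A and RPS10 to -0.20 and -0.16.

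Of the ribosomal proteins that the symbol rule leaves out, 4 were looked at, and the median of their log2 ratios was -0.18. FAU, which encodes a small subunit protein fused to a ubiquitin-like sequence, had 24971 and 21019 counts and -0.011 (-0.037 to 0.016). RPL36AL, a close copy of RPL36A, had 14149 and 10499 counts and -0.19. RACK1, which sits on the head of the small subunit, had 156608 and 105172 counts and -0.34, the only one of the 4 called.

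Other mRNAs with a known TOP motif, mostly translation factors, had a lower median than the ribosomal protein genes. Of 20 tested, 8 were called lower and none higher, the median being -0.28 and the summed log2 ratio -0.37. The share called lower was 40%, beside 28.9% of all genes tested. NAP1L1, a histone chaperone, had 58679 and 27268 counts and -0.87, and HNRNPA1, a splicing regulator, had 62184 and 33097 counts and -0.67. VIM, at 0.30, was the highest and FAU came next. EEF1G had 0 counts in both libraries and could not be placed. RACK1 and FAU, both in that list, are ribosomal proteins themselves.

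Genes that build the ribosome had medians on the other side of 0. Of 55 assembly factors, 10 were called higher and 4 lower, and the median was 0.040, whereas the summed counts gave -0.11, with the opposite sign. The called shares, 18.2% and 7.27%, were both below those of all genes tested (29.8% and 28.9%). NPM1, an abundant nucleolar protein, had 87371 and 47517 counts and -0.64. GNL3, a nucleolar GTP-binding protein, was lowest at -0.78, and NOP16 and NOP2 were highest at 0.64 each. NOP2 had only 81 and 107 counts (0.21 to 1.07), against 1576 and 2083 for NOP16 (0.55 to 0.74). The median of the 7 ribosomal protein chaperones was 0.19, with 2 called higher, GRWD1 (0.44) and HEATR3 (0.32), and none lower. The share called higher, 28.6%, was near the 29.8% of all genes tested. PDCD2L (-0.23) and AAMP (-0.072) were the lowest of them.

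RNA polymerase I, which transcribes ribosomal RNA, had 3 of 14 genes called in each direction and a median of 0.18. That is 21.4% each way, below the share of all genes tested (29.8% higher, 28.9% lower). TAF1C had 1440 and 2555 counts and 1.07, POLR1G, listed as CD3EAP, had 200 and 297 and 0.81, and TAF1B and POLR1D had -0.43 and -0.47. Among 12 genes of mTORC1 and its control of TOP mRNAs, 4 were called lower and 1 higher, with a median of -0.16. These were 33.3% and 8.33%, beside 28.9% and 29.8% of all genes tested. EIF4EBP1, a translation repressor, had 18919 and 8694 counts and -0.88 and MLST8 had 23738 and 14059 and -0.52, whereas TSC2 had 0.32. The S6 kinases went opposite ways, RPS6KB1 with 2832 and 1691 counts and -0.51 and RPS6KB2 with 4573 and 5275 and 0.44. LARP1 had 37493 and 28723 counts and -0.15.

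The 77 mitochondrial ribosomal protein genes tested, nuclear genes for the other ribosome of the cell, had a median log2 ratio of 0.00072 and an interquartile range of 0.33. Of these, 11 were called higher (14.3%) and 6 lower (7.79%), beside 29.8% and 28.9% of all genes tested. Below 0 were 38 of 77, against 64 of the 77 cytosolic core members.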

How the data were processed

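C4-2B cells treated with vehicle or (R)-9b were profiled by RNA sequencing with 1 library per condition, grouped by the treatment label. The authors deposited gene counts of reads aligned uniquely and without ambiguity, without normalization. The authors also deposited these as CPM and moderated log2 CPM, and estimated counts per transcript. The submitters' processing notes name STAR 2.5.1a, featureCounts 1.4.6-p5, Salmon 0.8.2 and build hg38, whereas the paper names another STAR version. The strand setting is not given in the sources used here, so reads of overlapping antisense genes cannot be told apart. Low counts were mostly even (72.2% and 70.3% of genes with 1 to 20 counts), so 1 count may be 1 mate.

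Repeated gene lines were dropped, leaving 60671 genes. Counts were scaled by TMM (edgeR 4.0.16, R 4.3.3), and a gene counted as tested when its counts in both libraries summed to 10 or more. Calls were by size of the ratio, with no p-value. Any count below 3 was set to 3 in a ratio. Intervals used scipy 1.17.1, and the code was tested on simulated data. Alternatives were size factors of DESeq2 1.42.0, total and upper-quartile scaling, other tables, filters and folds. Coding lengths and exons came from GENCODE 29 (best APPRIS tag, then support level), and promoters from RefSeq. The text names the 5 highest and 5 lowest core members by ratio in each subunit and by level per kilobase, all called core members, paralogs with parents, members of role lists, and the 2 highest and 2 lowest genes of other lists. RPL34, RPL31, RPS2P5, NPM1, LARP1, RPS6KB1 and the RPS24, RPL6 and RPL29 isoforms were chosen after their values were seen. Some genes that the rule would name are not reported here and are left out of plots of single genes. The members and lists were chosen with earlier results of these data known. The authors' log2 values per transcript were left out.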

Additional observations from a re-analysis of the deposited data

How the results depend on the processing

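The core median was -0.12 and kept its sign under all alternatives: -0.18 with total scaling, with deposited CPM and with moderated log2 CPM, -0.088 with upper-quartile scaling and -0.10 from estimated transcript counts. The summed ratio, -0.17, was -0.23 under the former 3, -0.13 with upper-quartile scaling, -0.17 with DESeq2 size factors and -0.16 from transcript estimates. The interquartile range was 0.14 without the 4 members under 1000 counts, a choice made after seeing the data. The 4 genes called higher became 1 from transcript estimates (a gene whose principal mRNA is not listed there), 1 with pseudogene counts added, 1 at a fold of 2, and 0 both without the 4 members under 1000 counts and in the 66 members with at most 10 gene counts per estimated count, the latter also chosen after seeing the data. The 4 genes called lower became 8 with total scaling, with deposited CPM and with moderated log2 CPM, 1 with upper-quartile scaling, 2 where the whole interval had to pass the fold, and 0 at folds of 1.5 and 2. Those 2 were RPL41 and RPS2, and with halved counts the interval of RPS2 reached across the threshold. From transcript estimates RPL41 and RPL10 stayed lower than the limit, while RPS2 (-0.31) and RPL23 (-0.30) fell inside it. RPS9 (-0.34) and RPL36A (-0.38) were called lower there. Among called members, signs turned from transcript estimates for RPL17 (-0.044), RPS10 (-0.16) and RPL36A (-0.38), and with pseudogene counts for RPS10 (-0.16) and RPL36A (-0.20), and the cause was not tested. RPL12, not called and set aside for over 10 gene counts per estimated count, turned to 0.28 from transcript estimates. No paired analysis was possible because there was 1 library per condition. Depth limits RPL39L, RPL3L, RPL10L and the 4 members called higher, whose intervals are wide, whereas for the other core members the counting interval is narrow and the unmeasured spread between cultures is the limit.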

Other observations

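Genes outside the set that also begin with a C and a pyrimidine run were looked at in the same way. Of 773 such protein-coding genes tested, 252 were called lower and 147 higher, and the median log2 ratio was -0.11. The share called lower was 32.6%, beside 28.9% of all genes tested. The share called higher was 19.02%, beside 29.8%. Among those with a mean of at least 100 CPM, 166 had such a start, a median of -0.15, 31.3% called lower and 10.2% higher, whereas the 1526 with a promoter sequence but no such start had a median of -0.0097, 21.0% called lower and 19.1% higher. The share below 0 was 67.5% and 51.2%. The interquartile range was 0.46 over the 166 genes and 0.14 over the 73 core members with 1000 or more counts. No test was made, because the genes share 1 pair of libraries.

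Isoforms of RPL6 and RPL29 also changed share, although the principal mRNA of both genes is not listed in the transcript table and the shares are of the listed forms alone. RPL6-202 had 855 and 1166 estimated counts in vehicle and (R)-9b, which were 17.4% and 29.4% of the listed RPL6 forms. RPL29-204 had 483 and 663, 18.1% and 28.1%. RPS24-213, a form with a retained intron, had 2351 and 1001 estimated counts, 7.60% and 4.34% of RPS24.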
